A study of Mus musculus with 16 samples.

Results

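The lysosome is the acidic compartment in which a cell breaks down material taken up from outside and worn parts of its own, and 40 mouse genes of its membrane, its proton pump, its lumen and its control were followed here in atrial tissue after myocardial infarction. The genes were taken from a list by their symbols: a row of the array was used when its annotation gave exactly 1 gene symbol and that symbol was on the list, and the row with the highest mean was to be used where a gene had several. This found 38 of the 40 genes, each on a single row, among 30141 genes on the array, and all 38 passed the filter on low signal that left 18419 genes for testing. The row of Glb1, a lysosomal galactosidase gene, carried a further symbol and was not used, and no row under the name Atp6v0c, the gene of the proton-carrying ring subunit of the pump, was found in the annotation used. The atria came from male C57BL/6 mice aged 10 weeks, described as wild type, in 4 groups of 4 arrays: sham surgery, and day 1, day 3 and day 7 after the left anterior descending coronary artery was tied off. All groups therefore had surgery, no group carried a transgene or drug, and the labels do not time the sham atria, while the title of the series lists 0 days among its times. Arrays are called by the number in their labels, which are 1 to 4 for sham, 11 to 14 for day 1, 31 to 34 for day 3 and 71 to 74 for day 7. The labels give each array its own number and do not say more about the animals behind it, so the p-values measure the spread between these samples.

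Most lysosomal enzymes work best at low pH, and the pH is kept by the V-ATPase, a rotary pump whose V1 sector splits ATP in the cytoplasm and whose V0 sector carries protons through the membrane. Hydrolases for lipids, glycans and proteins fill the lumen, while heavily glycosylated proteins such as those encoded by Lamp1 and Lamp2 line the membrane and channels and transporters release the products. In the heart, lysosomes serve autophagy and glycogen breakdown in muscle cells and the digestion of dead cells in macrophages, and the loss of Lamp2, Gaa or Gla causes inherited heart muscle disease. Transcription factors of the MiT/TFE family, which include the products of Tfeb and Mitf, bind the letters CACGTG in the promoters of many lysosomal genes.

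These letters were looked for in the RefSeq promoters of GRCm38.p6, from 250 bases before to 50 bases after each start, to show which of the genes carry them and how. A promoter entry was present for 34 of the 40 genes and was missing for Npc1, Asah1, Atp6v0d2, Atp6v1b2, Atp6v1c1 and Atp6v1h. CACGTG reads the same on both strands and was found in 10 of the 34 genes (29.4%), which are Lamp1, Gla, Glb1, Gaa, Naglu, Lgmn, Mcoln1, Atp6v0b, Atp6v0d1 and Atp6v1a, beside 8.09% of all 27025 genes and 7.15% of all 32851 promoters in the table. The longer palindrome TCACGTGA, which contains it, was found in 4 of the 34 (11.8%), which are Gla, Mcoln1, Atp6v0d1 and Atp6v1a, beside 1.12% of all genes and 0.974% of all promoters. The same letters with G before and C after them were found in 0 of the 34 and in 0.37% of all genes. The stretches below were chosen because their genes differ in how their signals moved after infarction; they are written 5′ to 3′ along the gene, and capitals mark CACGTG or, where it is complete, TCACGTGA.
Lamp1, chr8:13159088-13159163, plus strand: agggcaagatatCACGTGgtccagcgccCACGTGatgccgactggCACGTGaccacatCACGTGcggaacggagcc
Gla, chrX:134601182-134601244, minus strand: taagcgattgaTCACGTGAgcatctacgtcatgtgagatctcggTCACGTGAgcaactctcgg
Mcoln1, chr8:3500436-3500491, plus strand: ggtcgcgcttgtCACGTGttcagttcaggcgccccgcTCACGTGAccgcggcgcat
Atp6v1a, chr16:44139373-44139402, minus strand: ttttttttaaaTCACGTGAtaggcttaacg
Lgmn, chr12:102439124-102439153, minus strand: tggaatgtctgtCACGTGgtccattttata
Gaa, chr11:119267811-119267840, plus strand: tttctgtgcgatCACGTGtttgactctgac
Among these genes Lamp1 has 4 copies in 76 bases. A match is a run of letters and was not taken as a bound site.

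Values are log2 signals as deposited, given for a group as mean ± SD over n = 4 arrays, and a difference is a log2 difference with the standard error of the limma fit across all 16 arrays. A gene is called at an adjusted p under 0.05 over all 18419 genes tested. Measured cardiomyocyte markers averaged between 17.32 and 17.57 in the sham arrays, so the tissue carried the heart muscle transcripts its label names. On 14 arrays the control separation, the signal gap between positive and negative control rows as an area under the curve, lay between 0.793 and 0.825, but it was 0.743 on day 3 array 31 and 0.755 on day 1 array 13. Array 31 also had a median correlation of only 0.935 with the other day 3 arrays. It had the lowest of the 4 day 3 values in 33 of the 38 lysosomal genes, beside 51.4% of all genes, and the highest in Atp6v1h and Tfeb. In 33 of 38 (86.8%) its value lay nearer to the day 1 mean than to the mean of the other day 3 arrays, beside 73.8% of all genes. Its mean over neutrophil markers, 8.71, lay within the day 1 range of 8.33 to 9.54, and its mean over cardiomyocyte markers, 14.60, was the lowest of the 16 arrays. Whether its day 3 label or the quality of its RNA is at fault was not tested, so each day 3 mean holds 1 array in doubt. Results that rest on array 31 or 13 are therefore given with and without them.

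The lysosomal genes did not move as a block. On day 1 about as many fell as rose, and 19 of 38 were called in either direction, beside 47.1% of all genes. By day 3 and day 7 more were called higher than lower, with the largest differences in Cd68, Lgmn and Grn on day 3 (4.04, 2.81 and 1.71) and in Cd68, Lipa and Grn on day 7 (3.00, 2.03 and 2.03). In either direction 21 were called on day 3, beside 43.7% of all genes, and 19 on day 7, beside 24.8%.

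On day 1, 9 of the 38 genes were called higher than sham (23.7%, beside 24.9% of all genes) and 10 lower (26.3%, beside 22.2%). On day 3, 17 were called higher (44.7%, beside 23.5%) and 4 lower (10.5%, beside 20.2%). On day 7, 18 were called higher (47.4%, beside 14.9%) and 1 lower (2.63%, beside 9.92%). The median difference from sham over the 38 genes was -0.02, 0.28 and 0.46 on days 1, 3 and 7, beside 0.06, 0.08 and -0.01 over all genes. All 4 values lay above all 4 sham values in 14, 17 and 23 genes on these days (beside 30.9%, 22.3% and 19.9% of all genes) and below them in 12, 5 and 4 (beside 24.2%, 20.5% and 18.4%). The F test over all 3 days called 27 of the 38 (beside 52.3% of all genes).

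On day 7 rises still outnumbered falls when the arrays were scaled in other ways. Quantile normalisation gave 17 higher and 1 lower on day 7 (beside 12.2% and 15.6% of all genes), and centring each array on its median gave 17 and 2 (beside 11.6% and 19.1%). The falls on the earlier days did depend on it: with quantile normalisation 7 genes were higher and 14 lower on day 1 (beside 18.7% and 32.8% of all genes) and 16 and 10 on day 3 (beside 17.8% and 29.5%). With centring they were 6 and 12 on day 1 (beside 18.8% and 30.1%) and 16 and 7 on day 3 (beside 18% and 30.7%). Over all genes the share of calls that were higher was 52.9%, 53.8% and 60.0% on days 1, 3 and 7 as deposited, 36.2%, 37.7% and 43.9% with quantile normalisation, and 38.5%, 36.9% and 37.9% with centring. The median of all genes on these days went from 0.06, 0.08 and -0.01 to -0.06, -0.03 and -0.06 with quantile normalisation and to -0.03, -0.05 and -0.11 with centring. Without array 31 the counts were 11 higher and 14 lower on day 1 (beside 35.6% and 26.9% of all genes), 22 and 4 on day 3 (beside 26.8% and 18.4%) and 23 and 1 on day 7 (beside 19.5% and 15.9%). Without array 13 they were 6 and 6 on day 1 (beside 18.1% and 16.9%).

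**Figure D1:**
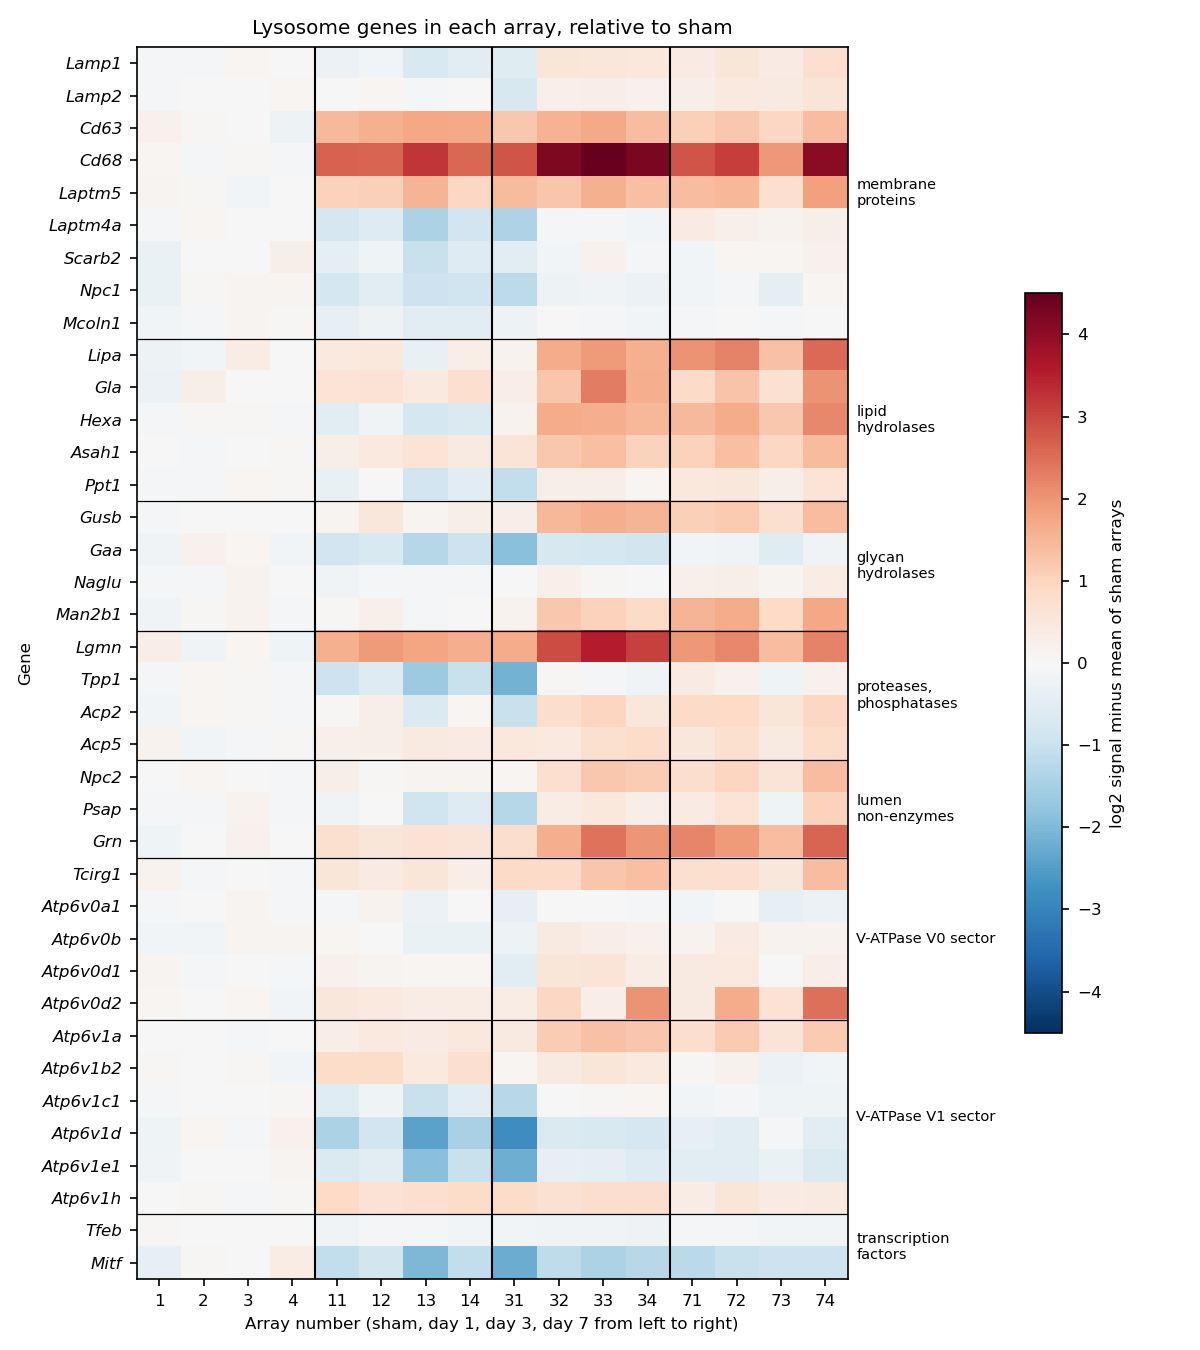
Log2 signal of each of the 38 lysosomal genes (rows, grouped by role) in each of the 16 arrays (columns), as the difference from the mean of the 4 sham arrays, red for higher and blue for lower. Cd68 is the reddest row on each day, the Lipa, Gla, Hexa, Gusb and Man2b1 rows are called higher from day 3 and not on day 1, and array 31 stands apart from the other day 3 columns with the lowest of the day 3 values in 33 rows.

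Markers of other cells moved over the same days. Over 13 macrophage and monocyte markers the mean signal was 6.71 to 6.88 in the sham arrays, 8.86 to 9.02 on day 1, 8.79 on array 31 and 9.84 to 10.26 on the other day 3 arrays, and 9.05 to 10.20 on day 7. Of these markers 9, 13 and 13 were called higher on days 1, 3 and 7 (beside 24.9%, 23.5% and 14.9% of all genes). Of them 0 were at background in any group. Over 9 neutrophil markers the mean was 4.32 to 4.49 in sham, 8.33 to 9.54 on day 1, 8.71 on array 31 and 5.65 to 5.73 on the other day 3 arrays, and 4.53 to 4.69 on day 7, with Ngp and Camp not above the negative controls in any group. Of 7 tested neutrophil markers 6, 6 and 0 were called higher (beside 24.9%, 23.5% and 14.9% of all genes). Of 9 cardiomyocyte markers 3, 5 and 1 were called lower (beside 22.2%, 20.2% and 9.92% of all genes). Their mean was 16.26 to 16.80 on day 1, 14.60 on array 31 and 16.52 to 16.59 on the other day 3 arrays, and 16.63 to 16.95 on day 7. Without arrays 13 and 31, 7, 8 and 7 of the 9 were called lower on days 1, 3 and 7 (beside 24.7%, 20.9% and 19.3% of all genes). Tnnt2, Myh6 and Atp2a2 averaged 19.93, 19.81 and 19.91 in sham, close to the highest sham array value of 19.93. On day 7 their SD was 0.0. Rows so close to the top of the scale may understate a fall, and so may these counts and means, which was not tested. Without arrays 13 and 31 Atp2a2 and Myh6 were called lower on day 3, at -0.27 and -0.21, and Tnnt2 was not called. Of 7 fibroblast markers 6, 2 and 1 were called lower (beside 22.2%, 20.2% and 9.92% of all genes) and 0, 1 and 4 higher (beside 24.9%, 23.5% and 14.9%). Their means were 10.75 to 10.89 in sham and 9.03 to 10.10 on day 1. On day 3 the mean was 9.78 on array 31 and 11.08 to 11.31 on the other arrays, above all sham arrays. On day 7 it was 12.31 to 12.78. The part of these cell types in the lysosomal differences was not tested, and in whole tissue fewer cells of a type and less RNA per cell cannot be told apart.

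Among the 9 membrane proteins and transporters, 3 rose on each day (beside 24.9%, 23.5% and 14.9% of all genes), and the others fell on day 1 or were not called. The genes that rose were Cd68, Cd63 and Laptm5. On day 1, 4 fell (beside 22.2% of all genes), which were Laptm4a, Scarb2, Npc1 and Mcoln1. On day 3 and day 7, 0 were called lower (beside 20.2% and 9.92%). Quantile normalisation made this 6 lower on day 1 and 5 lower on day 3 (beside 32.8% and 29.5% of all genes). The same 3 genes were still called higher in both (beside 18.7% and 17.8%).

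Cd68 encodes a heavily glycosylated protein of the endolysosomal membrane that is abundant in macrophages. Its sham values were 6.59, 6.38, 6.52 and 6.44, and its day 1 values were 9.12, 9.11, 9.69 and 9.07. On day 3 they were 9.32 on array 31 and 10.69, 11.33 and 10.72 on the others, and on day 7 they were 9.32, 9.61, 8.45 and 10.55. Every array after infarction lay above every sham array, array 31 lay inside the day 1 range, and the day 7 arrays were spread over more than 2 units. The difference from sham was 2.77 ± 0.41 on day 1 (adjusted p = 0.000148), 4.04 ± 0.41 on day 3 (adjusted p = 5.61e-06) and 3.00 ± 0.41 on day 7 (adjusted p = 0.000159). This was the largest difference among the 38 genes on each of the 3 days. Without array 31 the day 3 difference was 4.43 ± 0.35, and day 7 was then lower than day 3 by a called difference of -1.43 ± 0.35 (adjusted p = 0.0131), whereas with it that difference of -1.03 ± 0.41 was not called (adjusted p = 0.117).

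Cd63, the gene of a tetraspanin of late endosomes and lysosomes, was highest on day 1. It measured 13.14, 12.98, 12.91 and 12.72 in sham, 14.40, 14.54, 14.68 and 14.66 on day 1, 14.14, 14.49, 14.63 and 14.33 on day 3, and 14.00, 14.16, 13.86 and 14.31 on day 7. No value after infarction overlapped the sham values, and the day 7 values all lay below those of day 1. It rose by 1.63 ± 0.14 on day 1 (adjusted p = 1.41e-06), by 1.46 ± 0.14 on day 3 and by 1.15 ± 0.14 on day 7, and day 7 was lower than day 1 by a difference of -0.48 ± 0.14 (adjusted p = 0.0201). Without array 13 this last difference had an adjusted p of 0.0558.

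Laptm5 and Laptm4a encode related small lysosomal membrane proteins, the former of blood-derived cells and the latter of most tissues, and they moved apart on day 1. Laptm5 rose from 5.43 ± 0.11 in sham to 6.56 ± 0.26, 6.83 ± 0.15 and 6.80 ± 0.45, a difference of 1.13, 1.40 and 1.36 with a standard error of 0.19 on each day. Laptm4a measured 16.14, 16.27, 16.20 and 16.16 in sham and 15.43, 15.60, 14.76 and 15.32 on day 1. All day 1 values lay below sham, with array 13 the lowest. Laptm4a fell by 0.91 ± 0.25 on day 1 (adjusted p = 0.00957). On day 3 array 31 was at 14.81 and the others at 16.09, 16.15 and 16.07, at or just under the lower end of sham, and on day 7 all 4 arrays, at 16.36 to 16.55, lay above sham with a difference of 0.26 ± 0.25 that was not called. Without array 31 alone that difference was still not called (adjusted p = 0.166). With arrays 13 and 31 both left out it was called, at 0.26 ± 0.06 (adjusted p = 0.00617). Day 7 was then also called higher than day 3, by 0.35 ± 0.07 (adjusted p = 0.00372). With all arrays day 7 exceeded day 1 by 1.17 ± 0.25 (adjusted p = 0.00381).

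Scarb2, whose product carries glucocerebrosidase to the lysosome, Npc1, whose product exports cholesterol from it, and Mcoln1, the gene of a calcium-releasing channel of its membrane, shared this low on day 1. Npc1 was at 8.47 ± 0.21 in sham and 7.69 ± 0.20 on day 1, without overlap, and fell by 0.78 ± 0.20 (adjusted p = 0.00728). Mcoln1 was at 6.09 ± 0.11 and 5.70 ± 0.12, also without overlap, and fell by 0.39 ± 0.08 (adjusted p = 0.00108). Scarb2 was at 13.26 ± 0.23 and 12.70 ± 0.33, where sham array 1 at 12.96 lay below day 1 array 12 at 13.05, and fell by 0.56 ± 0.19 (adjusted p = 0.025), a call lost without sham array 2, 3 or 4 or array 13 or 14 (adjusted p from 0.0512 to 0.0854). All 3 were called higher on day 7 than on day 1, by 0.66 ± 0.20 for Npc1, 0.37 ± 0.08 for Mcoln1 and 0.62 ± 0.19 for Scarb2, though without array 13 the adjusted p was 0.0846 for Npc1 and 0.0829 for Scarb2. On day 7 none of them was called against sham, at -0.12, -0.02 and 0.06.

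Lamp1 and Lamp2, the genes of the main proteins of the lysosomal membrane, were not called against sham on any day. Lamp1 measured 14.47 ± 0.07 in sham, 14.08 ± 0.26 on day 1, 14.72 ± 0.52 on day 3 and 14.99 ± 0.18 on day 7. All its day 1 values lay below and all its day 7 values above those of sham, with differences of -0.39 ± 0.21 (adjusted p = 0.133) and 0.52 ± 0.21 (adjusted p = 0.0902). Day 7 was called higher than day 1, by 0.91 ± 0.21 (adjusted p = 0.00615). Lamp2 measured 15.78 ± 0.08 in sham and 15.78 ± 0.07 on day 1. On day 3 its value was 15.07 on array 31 and 16.01, 16.06 and 15.98 on the others, and on day 7 it was 16.04, 16.20, 16.17 and 16.34, above all sham values with a difference of 0.41 ± 0.17 (adjusted p = 0.104). Without array 31 both genes were called higher than sham on day 3, by 0.50 ± 0.13 for Lamp1 (adjusted p = 0.00663) and 0.24 ± 0.08 for Lamp2 (adjusted p = 0.0318), and on day 7, with adjusted p of 0.00482 and 0.000986. Lamp1 was then also called lower than sham on day 1, at -0.39 ± 0.12 (adjusted p = 0.0128). With arrays 13 and 31 both left out this was -0.30 ± 0.11 (adjusted p = 0.0304), and without array 13 alone it was not called (adjusted p = 0.308). The direction of Lamp2 on day 3 also turned with scaling, since quantile normalisation gave a called difference of -0.67 with all arrays and of -0.49 without arrays 13 and 31.

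Of the 5 measured lipid hydrolase genes 4, which were Lipa, Gla, Hexa and Asah1, rose on both day 3 and day 7, and Ppt1 was not called. Over all genes 23.5% were called higher on day 3 and 14.9% on day 7. On day 1 Asah1 alone was called, beside 24.9% of all genes called higher. The median difference over the 5 was 0.21, 1.24 and 1.21 on days 1, 3 and 7.

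Lipa encodes lysosomal acid lipase, which cleaves cholesteryl esters and triglycerides taken up by the cell. It measured 10.72, 10.81, 11.29 and 10.96 in sham and 11.37, 11.42, 10.62 and 11.23 on day 1. On day 3 it was 11.09 on array 31 and 12.63, 12.85 and 12.54 on the others, and on day 7 it was 12.98, 13.17, 12.27 and 13.48. Sham and day 1 overlapped, array 31 lay within the sham range, and all other day 3 and day 7 values lay above both. The difference from sham was 0.21 ± 0.35 on day 1 (adjusted p = 0.63), 1.33 ± 0.35 on day 3 (adjusted p = 0.00693) and 2.03 ± 0.35 on day 7 (adjusted p = 0.000876), with 1.73 ± 0.26 on day 3 without array 31.

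Hexa, the gene of the α subunit of β-hexosaminidase, which degrades gangliosides, went the other way first. Its sham values of 8.99, 9.09, 9.07 and 8.99 lay above all day 1 values of 8.55, 8.88, 8.25 and 8.39. They lay below all values of day 3, which were 9.20 on array 31 and 10.70, 10.66 and 10.53 on the others, and of day 7, which were 10.49, 10.72, 10.26 and 11.19. The day 1 difference of -0.52 ± 0.29 was not called (adjusted p = 0.151), though it was without array 31 (adjusted p = 0.0186), while Hexa rose by 1.24 ± 0.29 on day 3 (adjusted p = 0.00339) and by 1.63 ± 0.29 on day 7 (adjusted p = 0.00108). From day 1 to day 7 it rose by 2.15 ± 0.29 (adjusted p = 0.00013), the largest difference among the 38 genes between those days.

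Asah1, the gene of acid ceramidase, rose by 0.44 ± 0.16 on day 1 (adjusted p = 0.0377), 1.05 ± 0.16 on day 3 and 1.19 ± 0.16 on day 7, with no overlap with its sham values of 8.98 to 9.07 on any day. The day 1 call was lost with centring and without any 1 of the sham arrays or array 12, 13 or 14 (adjusted p from 0.06 to 0.103). It was also lost without the filter on low signal and with quantile normalisation without arrays 13 and 31. Gla, the gene of α-galactosidase A, which removes galactose from glycolipids, was at 6.58 ± 0.20 in sham and 7.19 ± 0.14 on day 1, where the difference of 0.62 ± 0.35 was not called (adjusted p = 0.155). It rose by 1.37 ± 0.35 on day 3 (adjusted p = 0.0057) and by 1.21 ± 0.35 on day 7 (adjusted p = 0.0202), and the day 7 call was lost without sham array 1 (adjusted p = 0.054) or without array 74, at 8.59 the highest of day 7 (adjusted p = 0.0729). Ppt1, whose product takes fatty acids off proteins, was at 9.89 ± 0.08 in sham, 9.47 ± 0.36 on day 1, 9.76 ± 0.66 on day 3 and 10.35 ± 0.14 on day 7. Its day 7 values all lay above sham, with a difference of 0.46 ± 0.26 that was not called (adjusted p = 0.226) and that was called without array 31 (adjusted p = 0.0249). Ppt1 was called higher on day 7 than on day 1, by 0.89 ± 0.26, but not without array 13 (adjusted p = 0.0783).

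**Figure D2:**
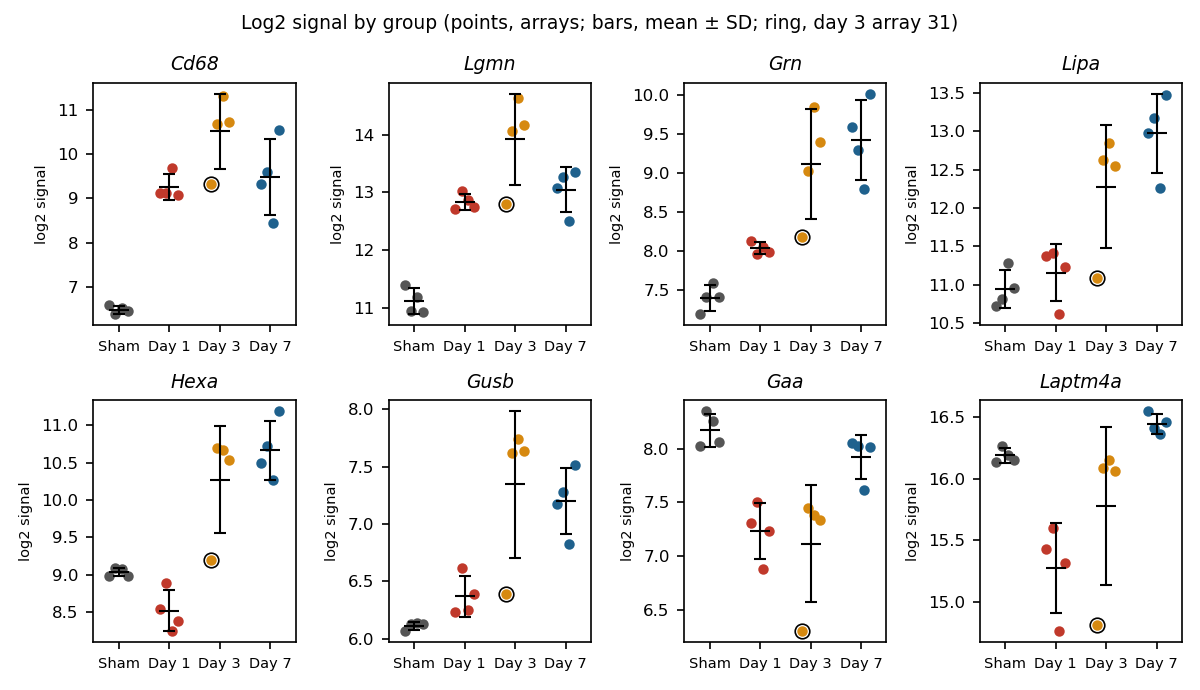
Log2 signal of 8 lysosomal genes (panels, each with its own vertical range) in sham, day 1, day 3 and day 7 arrays; points are arrays, bars are mean ± SD over 4 arrays, and the ring marks day 3 array 31. Cd68 and Lgmn are above sham on day 1 already, Lipa (except on array 31), Hexa and Gusb separate from sham by day 3, Gaa and Laptm4a dip on day 1, and the ringed array is the lowest day 3 point in all 8 panels.

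The 4 glycan hydrolase genes did not share a course. Gusb and Man2b1 rose on days 3 and 7, Naglu rose by a small amount on day 7, and Gaa fell on days 1 and 3. Of all genes 23.5% and 14.9% were called higher on days 3 and 7, and 22.2% and 20.2% lower on days 1 and 3. Gusb encodes β-glucuronidase and Man2b1 the lysosomal α-mannosidase. Gusb was at 6.06 to 6.13 in the 4 sham arrays and at 6.23, 6.61, 6.25 and 6.39 on day 1. On day 3 array 31 was at 6.39 and the others at 7.62, 7.74 and 7.63, and day 7 measured 7.18, 7.28, 6.83 and 7.52. Array 31 fell inside the day 1 range, and the other day 3 arrays were above every day 7 array. Gusb rose by 1.23 ± 0.24 on day 3 (adjusted p = 0.000892) and 1.09 ± 0.24 on day 7 (adjusted p = 0.00437), and without array 31 its day 7 level was called lower than day 3, at -0.46 ± 0.13 (adjusted p = 0.0282). Man2b1 rose by 0.82 ± 0.21 on day 3 and by 1.45 ± 0.21 on day 7, from 7.12 ± 0.14 in sham to 7.95 ± 0.46 and 8.58 ± 0.39.

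Gaa, the gene of the acid α-glucosidase that degrades glycogen in the lysosome, was the hydrolase gene of the set that fell on more than 1 day. Its sham values were 8.02, 8.35, 8.25 and 8.06, and its day 1 values were 7.30, 7.50, 6.88 and 7.23. Day 3 measured 6.30 on array 31 and 7.44, 7.38 and 7.33 on the others, and day 7 measured 8.05, 8.02, 7.62 and 8.01. Days 1 and 3 lay wholly below sham, and on day 7 all arrays except 73 were back in or at the edge of the sham range. Gaa fell by 0.94 ± 0.22 on day 1 (adjusted p = 0.00367) and by 1.06 ± 0.22 on day 3 (adjusted p = 0.00149), or by 0.79 ± 0.14 on day 3 without array 31. On day 7 it differed from sham by -0.25 ± 0.22 (adjusted p = 0.488) and exceeded day 3 by 0.81 ± 0.22 (adjusted p = 0.0277). It was the only one of the 38 genes called higher on day 7 than on day 3 with all arrays. Without array 31 that difference was 0.54 ± 0.14 and called, and without array 71, 72 or 74 it was not called (adjusted p from 0.0684 to 0.0767).

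Naglu, the gene of an enzyme of heparan sulfate breakdown, lay close to the negative controls, at or below them on all 4 day 1 arrays and on 2 day 3 arrays. It was at 4.58 ± 0.10 in sham and 4.81 ± 0.09 on day 7, a difference of 0.24 ± 0.07 (adjusted p = 0.0191), with sham array 3 at 4.72 above day 7 array 73 at 4.69. That call was lost under quantile normalisation (adjusted p = 0.105) and centring (adjusted p = 0.106), and without sham array 1 or 2 or array 72 or 74 (adjusted p from 0.0525 to 0.0656). Because day 1 was at background, the day 7 over day 1 difference of 0.33 is read only as at least 0.07.

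Among the 4 protease and phosphatase genes, Lgmn and Acp5 rose on all 3 days, Tpp1 fell on day 1 and Acp2 was not called. The shares of all genes called higher were 24.9%, 23.5% and 14.9% on days 1, 3 and 7, and 22.2% were lower on day 1. Lgmn encodes legumain, a protease that cuts after asparagine and also processes cathepsins. It measured 11.40, 10.95, 11.19 and 10.92 in sham and 12.71, 13.02, 12.88 and 12.76 on day 1. On day 3 it was 12.80 on array 31 and 14.06, 14.65 and 14.18 on the others, and on day 7 it was 13.08, 13.27, 12.50 and 13.36. Every value after infarction lay above sham, and the 3 day 3 arrays other than 31 lay above all arrays of the other days. Lgmn rose by 1.73 ± 0.31 on day 1 (adjusted p = 0.000587), 2.81 ± 0.31 on day 3 (adjusted p = 9.54e-06) and 1.94 ± 0.31 on day 7 (adjusted p = 0.00047). Day 7 differed from day 3 by -0.87 ± 0.31 (adjusted p = 0.0805), and without array 31 by a called -1.24 ± 0.20 (adjusted p = 0.000942).

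Acp5, the tartrate-resistant acid phosphatase gene of osteoclasts and of some macrophages, was at 4.94 ± 0.13 in sham and 5.26 ± 0.09, 5.56 ± 0.18 and 5.56 ± 0.19 after infarction. It rose by 0.32, 0.62 and 0.62, each ± 0.11, with no overlap with sham on any day, though the day 1 call was lost under quantile normalisation (adjusted p = 0.18) and centring (adjusted p = 0.0796) and without sham array 2 or 3 or array 13 or 14 (adjusted p from 0.058 to 0.0713). That call was also lost with quantile normalisation without arrays 13 and 31. The negative control medians themselves were 4.47 to 4.53 on the sham arrays and 4.69 to 4.87 on the day 1 arrays. How far this shift bears on day 1 differences of low signals such as Acp5 was not tested. Tpp1, the gene of a tripeptidyl peptidase, measured 11.88, 11.99, 11.96 and 11.85 in sham and 10.98, 11.35, 10.27 and 10.93 on day 1. All day 1 values were below sham, with array 13 the lowest, and it fell by 1.04 ± 0.39 (adjusted p = 0.0404). That call was lost without any 1 of the sham arrays or array 11, 13, 14, 72 or 74 (adjusted p from 0.0504 to 0.124, highest without array 13). It was also lost without the filter on low signal. On day 3 array 31 was at 9.80, far under the 11.75 to 11.99 of the others. Acp2, the gene of the other lysosomal acid phosphatase, was at 8.20 ± 0.10 in sham and 9.01 ± 0.18 on day 7, with all day 7 values above sham and a difference of 0.82 ± 0.34 that was not called (adjusted p = 0.097). Without array 31 it was called higher on day 3 (0.77 ± 0.19, adjusted p = 0.00424) and day 7 (adjusted p = 0.00246).

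Of the 3 genes whose products fill the lumen without being enzymes, Grn and Npc2 rose on days 3 and 7 and Psap was not called. Among all genes 23.5% and 14.9% were called higher on these days. Grn encodes progranulin, which is cut into granulins and is needed for normal lysosomes in macrophages and microglia. It measured 7.19, 7.41, 7.58 and 7.41 in sham and 8.13, 7.96, 8.05 and 7.99 on day 1. On day 3 it was 8.18, 9.02, 9.84 and 9.40, lowest on array 31, and on day 7 it was 9.59, 9.30, 8.80 and 10.01. No array after infarction overlapped sham and no day 3 or day 7 array overlapped day 1. The difference from sham was 0.63 ± 0.30 on day 1 (adjusted p = 0.0893), 1.71 ± 0.30 on day 3 (adjusted p = 0.000368) and 2.03 ± 0.30 on day 7 (adjusted p = 0.000251). Without array 31 the day 1 difference had an adjusted p of 0.0209. Npc2, the soluble cholesterol carrier that works with Npc1, rose by 0.79 ± 0.21 on day 3 (adjusted p = 0.00701) and 0.93 ± 0.21 on day 7 (adjusted p = 0.0049), from 6.65 ± 0.07 in sham. On day 1 the partners differed from sham by 0.15 ± 0.21 (Npc2, not called) and -0.78 ± 0.20 (Npc1, called). Psap, the precursor gene of the saposins that help enzymes reach lipids, measured 14.97 ± 0.11 in sham, 14.57 ± 0.42 on day 1, 14.92 ± 0.83 on day 3 and 15.43 ± 0.52 on day 7, and overlapped sham on each day.

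The subunits of the proton pump did not move together. In the membrane-bound V0 sector Tcirg1 rose on all 3 days and Atp6v0d2 on day 7, and Atp6v0a1, Atp6v0b and Atp6v0d1 were not called. In the cytoplasmic V1 sector Atp6v1h rose on all 3 days, Atp6v1b2 on days 1 and 3, and Atp6v1a on days 3 and 7, whereas Atp6v1d fell on days 1 and 3, Atp6v1e1 fell on day 1, and Atp6v1c1 was not called. These counts were 2 higher and 2 lower of 6 V1 genes on day 1 (beside 24.9% and 22.2% of all genes), 3 and 1 on day 3 (beside 23.5% and 20.2%), and 2 and 0 on day 7 (beside 14.9% and 9.92%). Under quantile normalisation or centring they were 2 and 3 on day 1, 2 and 2 on day 3, and 2 and 0 on day 7. Over all genes quantile normalisation gave 18.7% and 32.8%, 17.8% and 29.5%, and 12.2% and 15.6% on these days. Centring gave 18.8% and 30.1%, 18% and 30.7%, and 11.6% and 19.1%.

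Tcirg1 and Atp6v0a1 encode alternative forms of the large a subunit that holds the proton path. Tcirg1 is the form known from osteoclasts and immune cells, and Atp6v0a1 is a widely expressed one. Tcirg1 measured 5.63, 5.39, 5.46 and 5.45 in sham, 6.02, 5.86, 6.03 and 5.79 on day 1, 6.33, 6.35, 6.72 and 6.85 on day 3 and 6.20, 6.25, 6.01 and 6.88 on day 7. All values after infarction lay above sham, and here array 31 was close to the next lowest day 3 array. Tcirg1 rose by 0.44 ± 0.16 on day 1 (adjusted p = 0.0385), 1.08 ± 0.16 on day 3 (adjusted p = 0.000127) and 0.85 ± 0.16 on day 7 (adjusted p = 0.00174), and the day 1 call was lost under quantile normalisation (adjusted p = 0.0886), under centring (adjusted p = 0.0818) and without sham array 2, 3 or 4 or array 11 or 13 (adjusted p from 0.0747 to 0.0946). That call was also lost without the filter on low signal, without arrays 13 and 31, and with quantile normalisation without them. Atp6v0a1 was at 10.28 ± 0.10 in sham and differed from it by -0.05, -0.11 and -0.19 on days 1, 3 and 7, each ± 0.13, with overlap on each day.

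Atp6v0d1 and Atp6v0d2 encode alternative forms of the d subunit that joins the sectors, the latter known from osteoclasts, some macrophages and a few epithelia. Atp6v0d2 was not above the negative controls on any sham or day 1 array, where it read 4.03 to 4.24 and 4.48 to 4.67. On day 3 it read 4.49, 5.11, 4.47 and 6.18, with 2 arrays not above the controls, and on day 7 it read 4.56, 5.82, 4.80 and 6.65, all above them. The 2 highest values were those of arrays 74 and 34, and the day 7 SD of 0.96 was exceeded among the 38 genes only by Tpp1 and Atp6v1d on day 3. The fitted day 7 difference of 1.30 ± 0.41 was called (adjusted p = 0.0333) and is read as at least 0.97 since sham was at background. The call was lost without array 72, without array 74 and without any 1 of the 4 sham arrays (adjusted p from 0.0586 to 0.108). Atp6v0d1 was at 8.77 ± 0.09 in sham and differed by 0.12, 0.25 and 0.30, each ± 0.18. Atp6v0b, a V0 ring subunit gene, was at 8.33 ± 0.14 and differed by -0.13, 0.18 and 0.21, each ± 0.14. Without array 31 both were called higher on day 3, at 0.48 ± 0.11 and 0.31 ± 0.11, and Atp6v0d1 on day 7 as well.

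Acp5, Tcirg1 and Atp6v0d2 are shared with osteoclasts, so that cell type's other genes were read beside them. Of 7 osteoclast-like markers Calcr, Ocstamp, Dcstamp and Oscar were not above the negative controls in any group, and Mmp9 was so in sham and on day 7. The mean over the 7 was 4.12 to 4.17 in sham, 4.57 to 4.89 on day 1, 4.46 to 5.19 on day 3 and 4.40 to 4.46 on day 7. Of the 3 markers tested, 2, 3 and 2 were called higher on days 1, 3 and 7 (beside 24.9%, 23.5% and 14.9% of all genes). Ctsk rose by 0.86 ± 0.27 on day 3 and 1.69 ± 0.27 on day 7.

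Atp6v1a encodes the catalytic A subunit of the V1 sector and Atp6v1b2 the widely expressed form of the B subunit that pairs with it. Atp6v1a measured 7.20, 7.21, 7.11 and 7.19 in sham, 7.47, 7.61, 7.53 and 7.67 on day 1, 7.57, 8.31, 8.49 and 8.44 on day 3 and 7.98, 8.37, 7.76 and 8.35 on day 7. Each value after infarction was above sham and array 31 lay among the day 1 values. It rose by 1.02 ± 0.18 on day 3 (adjusted p = 0.000437) and 0.94 ± 0.18 on day 7 (adjusted p = 0.00182), after an uncalled 0.39 ± 0.18 on day 1 (adjusted p = 0.0854, and 0.0103 without array 31).

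Atp6v1b2 had another time course. It measured 10.54, 10.52, 10.55 and 10.39 in sham, 11.34, 11.33, 10.93 and 11.23 on day 1, 10.59, 10.89, 11.03 and 10.93 on day 3 and 10.54, 10.68, 10.23 and 10.39 on day 7. Days 1 and 3 lay above sham, and day 7 overlapped it. Atp6v1b2 rose by 0.71 ± 0.14 on day 1 (adjusted p = 0.00095) and by 0.36 ± 0.14 on day 3 (adjusted p = 0.0416), a call lost under quantile normalisation (adjusted p = 0.204) and centring (adjusted p = 0.161) and without any 1 of the sham arrays or array 14, 32, 33, 34, 71 or 74 (adjusted p from 0.052 to 0.105), and it fell from day 1 to day 7 by 0.74 ± 0.14 (adjusted p = 0.0012). The day 3 call was also lost without the filter on low signal and when only the compared groups were fitted. Quantile normalisation without arrays 13 and 31 lost it too. Atp6v1h, the gene of the regulatory H subunit, rose on each day. It went from 8.13 ± 0.07 in sham to 8.92 ± 0.11, 8.90 ± 0.07 and 8.55 ± 0.09, without overlap, and array 31 at 8.97 was the highest day 3 array. Its differences from sham were 0.79, 0.77 and 0.42, each ± 0.08, and day 7 was lower than day 3 by a called difference of -0.35 ± 0.08 (adjusted p = 0.0157, and 0.0549 without array 71).

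The products of Atp6v1c1, Atp6v1d and Atp6v1e1 belong to the stalks of the V1 sector that couple it to V0. Atp6v1d measured 12.98, 13.25, 13.10 and 13.35 in sham and 11.74, 12.30, 10.75 and 11.70 on day 1. On day 3 it was 10.38 on array 31 and 12.53, 12.48 and 12.42 on the others, and on day 7 it was 12.78, 12.67, 13.09 and 12.67. Days 1 and 3 lay below sham, with arrays 13 and 31 the lowest of their groups, and on day 7 array 73 lay inside the sham range. Atp6v1d fell by 1.55 ± 0.42 on day 1 (adjusted p = 0.00864) and by 1.22 ± 0.42 on day 3 (adjusted p = 0.029), and without array 31 by 0.69 ± 0.26 on day 3 (adjusted p = 0.0425). The day 3 call was lost without sham array 2, 3 or 4 (adjusted p from 0.0522 to 0.0673). It was also lost when only the compared groups were fitted. Atp6v1e1 was at 12.16 ± 0.12 in sham, 11.16 ± 0.62 on day 1, 11.27 ± 0.88 on day 3 and 11.66 ± 0.14 on day 7, below sham without overlap on each day. It fell by 1.00 ± 0.37 on day 1 (adjusted p = 0.0371), a call lost without any 1 of the sham arrays or array 13 or 14 (adjusted p from 0.0532 to 0.127), and differed by -0.89 ± 0.37 on day 3 (adjusted p = 0.0625) and -0.50 ± 0.37 on day 7 (adjusted p = 0.375). Without the filter on low signal the day 1 call was lost as well. With arrays 13 and 31 both left out Atp6v1e1 was called lower on all 3 days, at -0.71, -0.45 and -0.50. Atp6v1c1 was at 11.39 ± 0.04 in sham and differed by -0.56 ± 0.25 on day 1 (adjusted p = 0.0786), which was called without array 31 (adjusted p = 0.00205), and by -0.28 ± 0.25 and -0.15 ± 0.25 later.

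**Figure D3:**
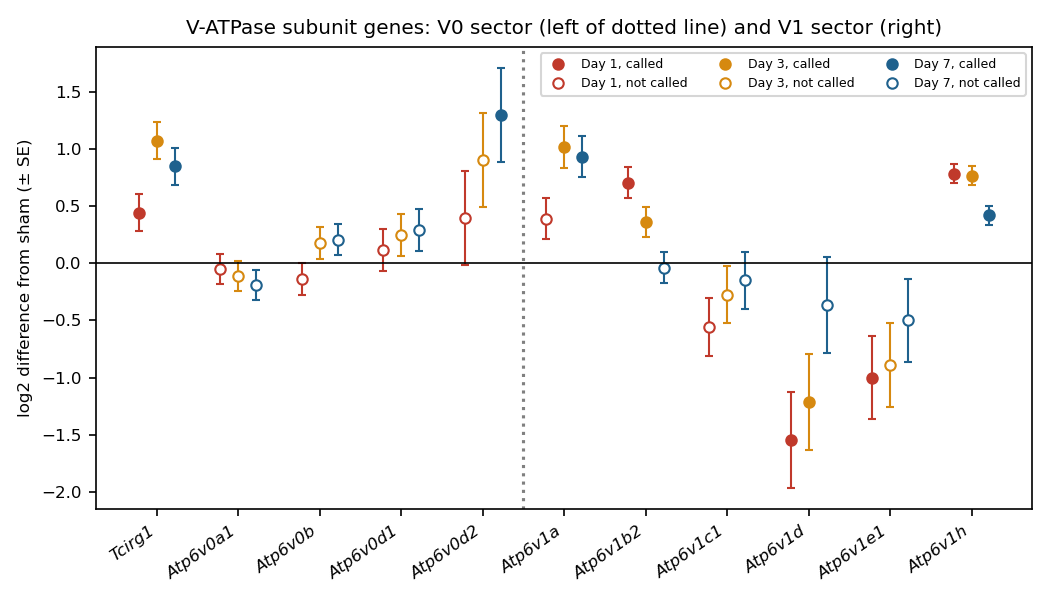
Log2 difference from sham ± SE of the limma fit (vertical axis) for the 11 measured V-ATPase subunit genes, V0 sector left and V1 sector right of the dotted line, on days 1, 3 and 7; filled points are called at an adjusted p under 0.05. Tcirg1, Atp6v1a and Atp6v1h lie above the zero line on all days, Atp6v1b2 returns to it by day 7, and Atp6v1d and Atp6v1e1 lie below it, farthest on day 1.

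Both transcription factor genes fell on days 1 and 3, and Mitf also on day 7 (beside 22.2%, 20.2% and 9.92% of all genes called lower). Mitf measured 10.36, 10.81, 10.75 and 11.07 in sham and 9.65, 9.91, 8.72 and 9.63 on day 1. On day 3 it was 8.52 on array 31 and 9.60, 9.32 and 9.50 on the others, and on day 7 it was 9.52, 9.74, 9.83 and 9.83. No value after infarction reached the lowest sham value, and arrays 13 and 31 were the lowest. Mitf fell by 1.27 ± 0.27 on day 1 (adjusted p = 0.00184), 1.52 ± 0.27 on day 3 (adjusted p = 0.000417) and 1.02 ± 0.27 on day 7 (adjusted p = 0.0121), and it was the one gene of the 38 called lower on all 3 days. With arrays 13 and 31 left out the differences were -1.02, -1.28 and -1.02, all called.

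Mitf is known from melanocytes as well as from heart muscle, osteoclasts and macrophages, so melanocyte markers were read beside it. Of 7 such markers Tyr, Tyrp1, Pmel and Slc45a2 were not above the negative controls in any group, and Dct was not on days 1 and 3. The mean over the 7 was 4.53 to 4.64 in sham and 4.15 to 4.51 on day 1. On day 3 it was 4.63 on array 31 and 4.21 to 4.30 on the others, and on day 7 it was 4.22 to 4.38. Of the 3 tested, Mlana fell from 7.37 in sham to 4.84, 5.52 and 5.89, Dct was called lower on all 3 days, and Kit was called higher on day 3. Cardiomyocyte markers called lower beside Mitf were 3, 5 and 1 of 9 on days 1, 3 and 7 (beside 22.2%, 20.2% and 9.92% of all genes). Without arrays 13 and 31 they were 7, 8 and 7 (beside 24.7%, 20.9% and 19.3%). The part of either cell type in the Mitf difference was not tested.

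Tfeb measured 5.32, 5.27, 5.25 and 5.24 in sham, 5.12, 5.17, 5.18 and 5.16 on day 1, 5.13, 5.13, 5.10 and 5.05 on day 3 and 5.20, 5.20, 5.13 and 5.14 on day 7. All values after infarction lay below all sham values. Tfeb fell by 0.11 ± 0.04 on day 1 (adjusted p = 0.0392) and 0.17 ± 0.04 on day 3 (adjusted p = 0.00461), and differed by -0.10 ± 0.04 on day 7 (adjusted p = 0.0838). The day 1 call was lost without sham array 1, 2 or 3, any 1 of the day 1 arrays or array 33 (adjusted p from 0.05 to 0.0975), while with centring Tfeb was also called lower on day 7 (-0.21, adjusted p = 0.00412). Without the filter on low signal, without the variance trend, or with only the compared groups fitted, the day 1 call was lost as well. Of the other family genes, Tfec, which is expressed in macrophages, was not above the negative controls in sham and rose by at least 2.62, 1.36 and 0.64 on days 1, 3 and 7, with a fitted day 1 difference of 2.80 ± 0.22. Tfec was called lower on day 3 than on day 1 and lower on day 7 than on day 3, at -1.26 ± 0.22 and -0.72 ± 0.22. Tfe3 was not called, at 0.14 ± 0.06, 0.13 ± 0.06 and 0.13 ± 0.06 above sham. It was not above the negative controls on 3 sham, 4 day 1, 2 day 3 and 1 day 7 arrays, so these differences lie near background.

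**Figure D4:**
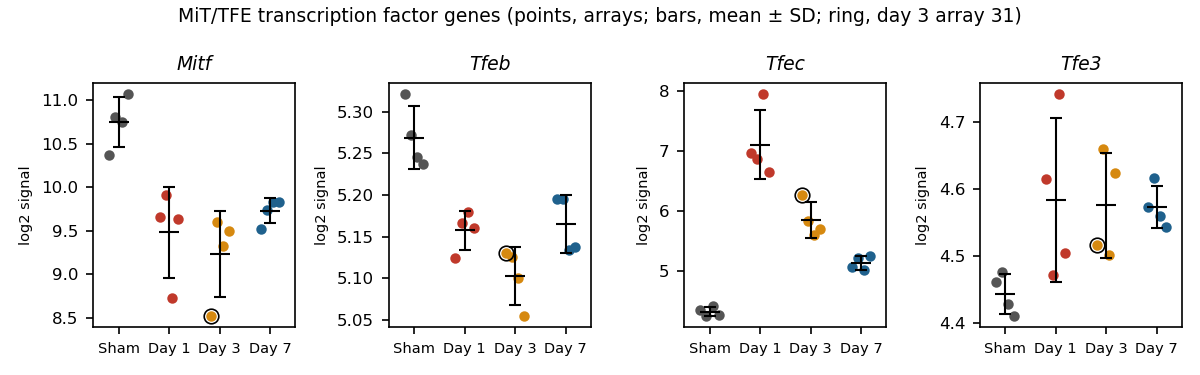
Log2 signal of the 4 MiT/TFE transcription factor genes (panels, each with its own vertical range) by group; points are arrays, bars are mean ± SD over 4 arrays and the ring marks array 31. Mitf and Tfeb lie below sham on all 3 days, though the Tfeb axis covers under 0.3 units, and Tfec is highest on day 1 and lower on each later day.

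Set beside the promoters printed above, genes with CACGTG differed in their responses. Gla and Atp6v1a, with TCACGTGA, rose on days 3 and 7, Lgmn rose on all 3 days, Mcoln1 fell on day 1 and Gaa on days 1 and 3. Naglu rose on day 7 only, and Lamp1, Atp6v0b and Atp6v0d1 were not called against sham. Risers without the letters in their promoter entry included Cd68, Lipa, Hexa, Gusb, Grn and Tcirg1.

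Between neighbouring infarction days, more of the genes were called from day 1 to day 3 than from day 3 to day 7. Of the 38 genes 9 were called higher on day 3 than on day 1 (23.7%, beside 5.95% of all genes) and 0 lower (beside 2.16%), against 8.11% of all genes in either direction. All day 3 values lay above all day 1 values in 5 (beside 6.95% of all genes) and below them in 0 (beside 3.45%). The 9 genes called higher were Gusb, Hexa, Asah1, Grn, Lgmn, Man2b1, Mcoln1, Tcirg1 and Atp6v1a, of which Hexa moved most, by 1.76 ± 0.29 (adjusted p = 0.00243). Without array 31 this count was 28 higher and 0 lower, beside 18.8% and 16.8% of all genes, and it included Lipa (1.52 ± 0.26), Cd68 (1.67 ± 0.35), Lamp1 (0.90 ± 0.13) and Laptm4a (0.82 ± 0.15). Leaving out any 1 of the other arrays of days 1 and 3 left between 1 and 3 genes called higher (beside 3.02% to 4.9% of all genes). Leaving out a sham array or array 71 or 72 left 5 (beside 4.97% to 5.35%). The count with all arrays thus rests on single arrays, and the share of all genes also dropped. From day 3 to day 7, 1 was called higher, Gaa (beside 4.06% of all genes), and 1 lower, Atp6v1h (beside 8.57%), while all day 7 values lay above all day 3 values in 5 (beside 10.4%). Without array 31 Gaa was still higher (beside 3.53% of all genes), and Cd68, Gusb, Lgmn, Atp6v1b2 and Atp6v1h were lower (beside 12.1%).

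Comparing day 7 with day 1, 17 genes were higher (44.7%, beside 13.6% of all genes) and 3 lower (7.89%, beside 12.7%). The higher ones held hydrolase genes, such as Hexa, Lipa (1.82 ± 0.35) and Man2b1 (1.39 ± 0.21), and also genes that had fallen on day 1, such as Laptm4a and Tpp1 (1.17 ± 0.39), as well as Lamp1. The lower ones were Cd63, Atp6v1b2 and Atp6v1h (-0.36 ± 0.08). Without array 13, 10 were higher and 2 lower (beside 9.73% and 8.25% of all genes), and without array 31, 25 and 3 (beside 21.5% and 28.7%). Without array 14, 72 or 74, 10 or 11 were higher (beside 10.3% to 10.8% of all genes).

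**Figure D5:**
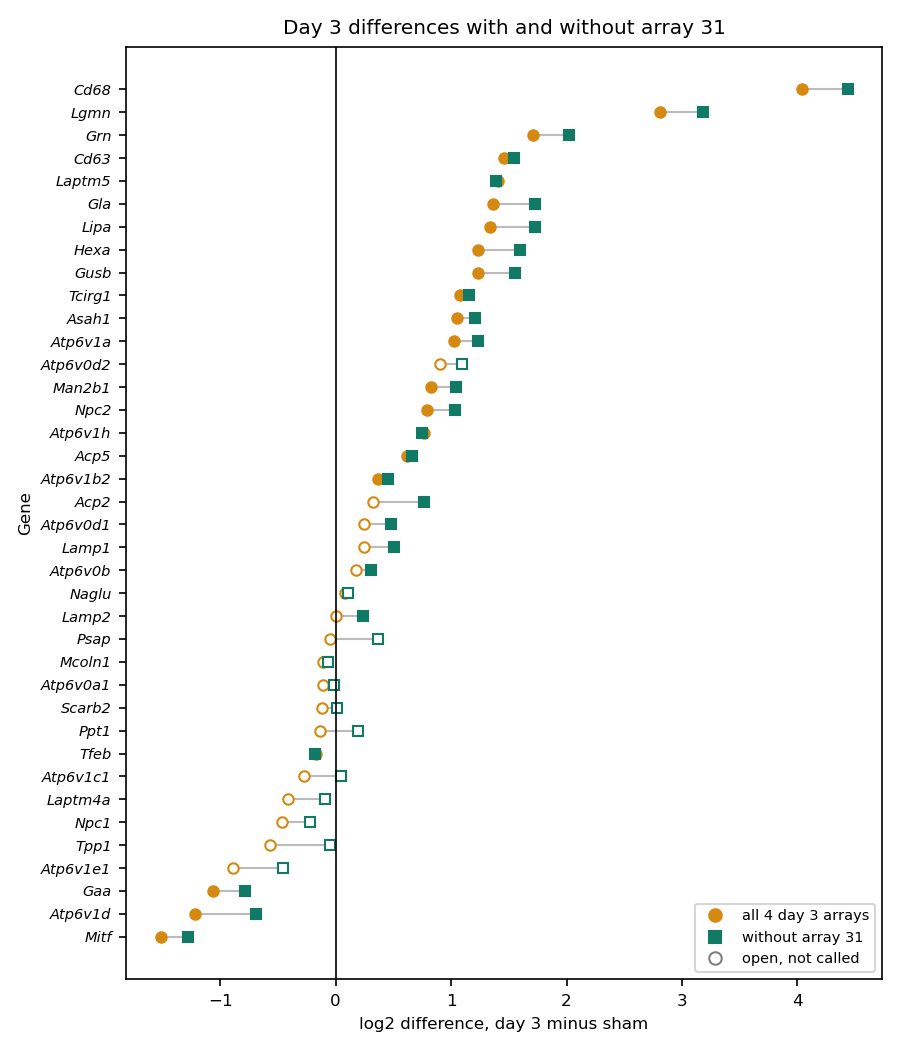
Log2 difference between day 3 and sham (horizontal axis) for each of the 38 lysosomal genes, with all 4 day 3 arrays (circles) and without array 31 (squares); filled symbols are called at an adjusted p under 0.05. Most squares lie to the right of their circles, and the genes called higher go from 17 to 22 with Lamp1, Lamp2, Acp2, Atp6v0b and Atp6v0d1 added.

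The day 7 arrays differed among themselves in an order that the risen genes shared. Of the 18 genes called higher on day 7, array 74 had the highest day 7 value in 16 and array 73 the lowest in 16, beside 24.5% and 28.8% of all genes, and both held in 15. Over all 38 genes array 74 was highest in 24 and array 73 lowest in 29. The same order held in 13 macrophage and monocyte markers, of which 12 were highest on array 74 and 11 lowest on array 73, with marker means of 9.48, 9.70, 9.05 and 10.20 on arrays 71 to 74. Cd68 at 8.45 and 10.55, Lipa at 12.27 and 13.48 and Grn at 8.80 and 10.01 on arrays 73 and 74 show the size of the gap, which for Cd68 was larger than the difference between the day 7 and day 1 means. Atp6v1d, which was lower than sham on days 1 and 3, was highest on array 73. Whether the arrays differ in macrophage content or in another way was not tested.

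Other lysosomal genes, from lists of the same pathway, are given for comparison by counts called higher and lower. The shares of all genes to set beside them are 24.9% higher and 22.2% lower on day 1, 23.5% and 20.2% on day 3, and 14.9% and 9.92% on day 7. Of 11 tested cathepsin genes, the main lysosomal proteases and an inhibitor, 3 were higher and 2 lower on day 1, 6 and 1 on day 3 and 7 and 0 on day 7, led by Ctss, a protease of antigen-presenting cells, which rose on all 3 days, by 6.12 ± 0.40 on day 3 and 6.20 ± 0.40 on day 7. Ctsz rose by 1.88 ± 0.29, 2.49 ± 0.29 and 2.64 ± 0.29 and Ctsc by 1.60 ± 0.24, 2.51 ± 0.24 and 2.01 ± 0.24. Of 21 other hydrolase and activator genes 2 were higher and 5 lower on day 1, 9 and 3 on day 3 and 11 and 1 on day 7. They included Prcp (1.38 ± 0.34 on day 3 and 2.19 ± 0.34 on day 7), Scpep1 (1.08 ± 0.30 and 1.95 ± 0.30) and Pla2g15 (1.31 ± 0.22 on day 7), and, among those that fell on day 1, the acid sphingomyelinase gene Smpd1 (-1.17 ± 0.30), Aga (-1.10 ± 0.12) and Idua (-0.98 ± 0.10). With centring the day 3 count became 6 and 6, beside 18% and 30.7% of all genes.

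Of 26 other membrane protein and transporter genes 8 were higher and 12 lower on day 1, 8 and 7 on day 3 and 8 and 2 on day 7. Plin2, counted in this list although it encodes a lipid droplet coat protein, rose by 2.77 ± 0.27, 2.44 ± 0.27 and 1.10 ± 0.27. The phagosomal metal transporter gene Slc11a1 rose by 1.78 ± 0.15 on day 1 and 1.52 ± 0.15 on day 3. On day 7 Gpnmb rose by 3.67 ± 0.75 and Slc29a3 by 1.34 ± 0.24. Laptm4b, a close relative of Laptm4a, fell by 2.20 ± 0.39 on day 1, and Tmem106b fell by 1.31 ± 0.33 on day 3. Of 15 other V-ATPase subunit and accessory genes 1 was higher and 7 lower on day 1, 3 and 4 on day 3 and 4 and 2 on day 7. Falls thus outnumbered rises on day 1, as they did among the 26 membrane protein and transporter genes. Atp6v0a2, a further form of the a subunit, fell by 0.82 ± 0.23 and Wdr7 by 0.70 ± 0.18 on day 1, where Dmxl2 rose by 0.65 ± 0.15. Atp6v0e rose by 0.94 ± 0.24 on day 3 and 1.00 ± 0.24 on day 7, Atp6ap2 by 0.63 ± 0.17 and 0.89 ± 0.17, and Ncoa7 by 0.66 ± 0.11 on day 7.

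Of 20 genes that sort enzymes to the lysosome 1 was higher and 6 lower on day 1, 2 and 2 on day 3 and 0 and 1 on day 7. The sorting receptor genes Sort1 and Igf2r fell by 1.46 ± 0.38 and 0.86 ± 0.31 on day 1 and Vps41 by 0.79 ± 0.30, while on day 3 M6pr, the gene of the other mannose 6-phosphate receptor, rose by 0.62 ± 0.19 and Gnptg and Vps39 fell by 0.34 ± 0.06 and 0.31 ± 0.12. Without arrays 13 and 31 these counts were 8 and 2 on day 3 (beside 28.2% and 20.9% of all genes) and 6 and 1 on day 7 (beside 21.3% and 19.3%). Of 20 regulators, including mTORC1 and its partners on the lysosomal surface, 2 were higher and 12 lower on day 1, 2 and 7 on day 3 and 1 and 3 on day 7. The GTPase gene Rragd was lower on all 3 days, at -2.25 ± 0.42, -2.17 ± 0.42 and -1.23 ± 0.42, Fnip1 fell by 1.20 ± 0.32 on day 1 and 1.28 ± 0.32 on day 3, and Rragb fell by 0.63 ± 0.13 on day 7. With centring or quantile normalisation 14 of the 20 were lower on day 3, beside 30.7% and 29.5% of all genes.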

How the data were processed

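Total RNA of mouse atria was measured on 16 single-colour arrays. The authors deposited 1 table of log2 signals with 72688 rows, made with Affymetrix Expression Console per the submitters' processing notes. For background correction, summarisation and scaling the method was "not given in the sources used here", and differences stay on the log2 scale. The labels name a 3' expression array, but row names are those of transcript clusters, so the array design is uncertain. Control rows (6732) were set aside, and 30604 rows carried 1 symbol, 2146 several and 33206 none in the platform annotation, giving 30141 genes, of which 356 had several rows.

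Testing was limited to genes whose signal exceeded the array's own median, taken over every row, on 4 or more of 16 arrays. limma 3.58.1 in R 4.3.3 (lmFit, eBayes with trend) fitted 1 mean per group over all arrays, with 6 pairwise comparisons, Benjamini-Hochberg adjustment over 18419 genes and a moderated F test; the steps were tested on simulated data. A gene at or below the median negative control on every array of a group has only a bound there ("at least"), with those medians in its place. The number of arrays limits the precision.

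The 40 genes and all other lists were chosen with earlier results of these data known. Named genes are the 40, up to 3 called genes with the largest difference per day from each other lysosomal list (hydrolases and activators, membrane proteins and transporters, other V-ATPase genes, sorting, regulators, cathepsins), and marker genes (macrophage and monocyte, neutrophil, osteoclast-like, melanocyte, cardiomyocyte, fibroblast) by level and background. Promoters were read from RefSeq entries of GRCm38.p6. Alternatives covered scaling, filter, row choice, variance trend, array weights, samples in the fit and leaving out arrays. Tables were prepared with Python 3.11.15, pandas 2.3.3 and numpy 2.4.6.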

Additional observations from a re-analysis of the deposited data

Results flagged for a closer look

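Within each group of 4 arrays the highest or lowest value of a lysosomal gene was marked when its gap to the nearest other array took up more of the group's range than Dixon's critical value allows. Chance marks about 1 in 20 groups, and here 21 of 152 (13.8%) were marked, 13 of them by array 31.

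Array 31 lay below the other day 3 arrays at 13.94 in Lamp1, 15.07 in Lamp2, 14.81 in Laptm4a, 7.28 in Npc1, 6.39 in Gusb, 9.20 in Hexa and 6.30 in Gaa. It was likewise lowest at 13.69 in Psap, 9.80 in Tpp1, 8.78 in Ppt1, 10.15 in Atp6v1c1, 10.38 in Atp6v1d and 9.95 in Atp6v1e1. On day 1, array 13 lay above the others at 9.69 in Cd68.

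On day 7, array 73 lay below the others at 7.62 in Gaa and 8.75 in Acp2, and array 72 above them at 8.71 in Atp6v0b. In sham, array 1 was lowest at 8.16 in Npc1 and 6.06 in Gusb, array 3 highest at 15.14 in Psap and array 4 lowest at 10.39 in Atp6v1b2. The other sham values of Gusb all read 6.13.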

How the results depend on the processing

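No paired analysis was possible because the groups share no replicate number. Over 26 settings, 5395 of 5916 gene, comparison and setting values kept their side of the threshold and direction, 246 lost a call, 272 gained one and 3 reversed; 109 sign changes of values called in neither setting, none larger than 0.39, were counted as unchanged. All 3 reversals were Lamp2 on day 3, near 0 with all arrays, which became 0.22 with array weights (adjusted p = 0.0186) and 0.24 both without array 31 and without arrays 13 and 31 (adjusted p = 0.0318 and 0.0136); leaving out 1 array moved it between -0.0939 and 0.235. Calls kept under every alternative that could be run were 6 of 9 higher and 6 of 10 lower on day 1, 16 of 17 and 3 of 4 on day 3, and 15 of 18 and 1 of 1 on day 7. Leaving out arrays 13 and 31, alone or with quantile normalisation, was chosen after seeing the data.

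Counts against sham moved by over 1.5 times as follows. On day 1, 9 higher became 14 when only the compared groups were fitted, and 10 lower became 17 with quantile normalisation without arrays 13 and 31. On day 3, 4 lower became 10 with quantile normalisation, with or without those arrays, and 7 with centring. On day 7, 1 lower became 2 with centring or without arrays 13 and 31, 3 with array weights or only the compared groups, and 6 with quantile normalisation without arrays 13 and 31. Leaving out 1 array gave 6 to 11 higher and 6 to 14 lower on day 1 (6 lower without sham array 2 or 3, array 13 or array 14), 16 to 22 and 3 to 5 on day 3, and 15 to 23 and 1 to 1 on day 7.

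Between days, 9 higher on day 3 than day 1 became 4 without a filter, 29 with array weights, 0 with only the compared groups, 25 without arrays 13 and 31 and 22 with quantile normalisation without them, and 0 lower became 1 with array weights or without arrays 13 and 31; leaving out 1 array gave 1 to 28 higher and 0 to 0 lower. From day 3 to day 7, 1 higher became 4 with quantile normalisation, 2 with centring, 5 with array weights, 0 with only the compared groups, 2 without arrays 13 and 31 and 5 with quantile normalisation without them, and 1 lower became 2 without the variance trend, 6 with array weights, 0 with only the compared groups, 6 without arrays 13 and 31 and 4 with quantile normalisation without them; leaving out 1 array gave 0 to 3 higher and 0 to 5 lower. From day 1 to day 7, 17 higher became 26 with array weights, and leaving out 1 array gave 10 to 25 higher (10 or 11 without array 13, 14, 72 or 74) and 2 to 3 lower. Over all genes the calls higher and lower were 4593 and 4085 on day 1 (3343 to 6659 and 3104 to 6485 over the settings), 4331 and 3720 on day 3 (3284 to 5602 and 2848 to 5649), 2741 and 1827 on day 7 (2138 to 4274 and 1182 to 4864), 1096 and 398 from day 1 to day 3 (208 to 3930 and 46 to 3516), 748 and 1579 from day 3 to day 7 (252 to 1727 and 603 to 3425), and 2514 and 2340 from day 1 to day 7 (1792 to 4304 and 1472 to 5463). The cause of these moves was not tested.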
